A study of Mus musculus with 12 samples.

Results

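OT-I cells are CD8 T cells of a transgenic mouse line that all carry the same T cell receptor, specific for an ovalbumin peptide held by a class I MHC molecule. The data described here come from OT-I cells primed with Y3, an altered ovalbumin peptide known to bind that receptor more weakly than N4, the agonist form, and they compare Y3 priming plus corticosteroid with Y3 priming alone. The members were chosen by label: 6 of the 12 arrays of the series, 3 from Y3 plus corticosteroid cells and 3 from Y3 cells, each numbered as biological replicates 1 to 3. The remaining 6 arrays, 3 from N4 plus corticosteroid cells and 3 from N4 cells, are used for comparison. All 12 samples were labelled as OT-I splenocytes cultured for 4 days, and total RNA was hybridised as biotin-labelled DNA to Affymetrix mouse transcriptome arrays. The cells were kept in RPMI1640 with fetal bovine serum and L-glutamine. The sources used here name neither the steroid nor its dose, the strain background, age or sex of the mice, nor how many mice were pooled. No label says whether same-numbered cultures came from the same mouse. The replicates may therefore be technical in part, and any p-value measures only the spread between these arrays.

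Corticosteroids diffuse into cells and bind the glucocorticoid receptor, which then enters the nucleus, activates genes such as Tsc22d3 and Fkbp5, and restrains the transcription factors behind many cytokine genes. T cells that are primed through the receptor enlarge and divide, and for this they take up amino acids, run glycolysis and make sterols and fatty acids. The transcription factor ATF4 drives genes of amino acid uptake, amino acid synthesis and tRNA charging, and factors of the SREBP family drive sterol and fatty acid genes. Weak receptor ligands are known to support this growth less strongly than agonist ligands.

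Values are log2 signals of a gene's transcript cluster, and differences are Y3 plus corticosteroid minus Y3 on the log2 scale, with limma's standard error over 12 arrays (n = 3 per group). A difference of 1 is a doubling of signal. Limma called 0 of 39463 genes at an adjusted p under 0.05 for Y3 plus corticosteroid against Y3, with 1259 genes (3.19%) at an unadjusted p under 0.05 and a smallest adjusted p of 1.00. Blocking on the replicate number, limma again called 0 genes, with 2649 (6.71%) at an unadjusted p under 0.05 and a smallest adjusted p of 0.136. No difference below therefore passed the test over all genes. Each is given as a measured value, with its error, its values by replicate number or the number of pairs that share its sign. Not every gene is given with all of these.

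The arrays of replicate 1 stood apart from the others. The first principal component of the 6 arrays held 55.5% of their variance and placed the replicate 1 arrays at 39.5 with corticosteroid and 56.2 without, against -29.2 to -17.8 for the arrays of replicates 2 and 3. Without the 4 arrays of replicate 1, limma called 0 genes, with 1833 at an unadjusted p under 0.05. Values by replicate number are given below for this reason. Median signals of the 39463 genes ran from 5.06 to 5.11 in Y3 plus corticosteroid arrays and from 5.04 to 5.13 in Y3 arrays. The brightest background control, used here as a background line, lay at 5.81 to 6.40 in Y3 plus corticosteroid arrays and at 5.57 to 6.08 in Y3 arrays.

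The markers matched the labelled cell type. Cd8a, a chain of the CD8 coreceptor, was at 16.59 ± 0.47 in Y3 plus corticosteroid cells and 16.38 ± 0.57 in Y3 cells (log2 signal, SD, n = 3). Its partner chain Cd8b1 was at 17.39 ± 0.35 in Y3 plus corticosteroid cells and 17.39 ± 0.56 in Y3 cells, and Cd3e, of the T cell receptor complex, at 16.77 ± 0.20 in Y3 plus corticosteroid cells and 16.73 ± 0.19 in Y3 cells. All 8 T cell markers on the array lay above the background line in both groups, with a median difference of -0.02. Markers of other cells were mostly below the line on all 3 arrays of both groups: 7 of 9 B cell markers, among them Ms4a1, 8 of 10 dendritic cell markers, 8 of 10 macrophage markers, 7 of 8 neutrophil markers and 6 of 6 erythroid markers. Of 7 NK cell markers, 4 lay below the line in Y3 plus corticosteroid cells and 5 in Y3 cells, and of 6 CD4 and regulatory T cell markers 2 did so in each group. The log2 of the B cell list's summed signals ran from 13.82 to 14.29 in Y3 plus corticosteroid cells and from 14.36 to 14.77 in Y3 cells, nearly all of it Ighm at 14.27, 13.79 and 13.98 in Y3 plus corticosteroid cells, against 14.36, 14.34 and 14.75 in Y3 cells. The dendritic cell list's sum ran from 10.33 to 10.95 in Y3 plus corticosteroid cells and from 11.06 to 11.26 in Y3 cells. Its brightest members were the class II genes H2-Ab1, at 10.72, 9.97 and 10.29 in Y3 plus corticosteroid cells, against 10.82, 10.93 and 10.98 in Y3 cells, and Cd74, at 6.50, 6.34 and 6.78 in Y3 plus corticosteroid cells, against 6.99, 7.08 and 7.82 in Y3 cells. Neither list's groups overlapped, and the part of these cells in the differences below was not tested. In bulk RNA, fewer cells of a type and less RNA per cell cannot be told apart.

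Known targets of the glucocorticoid receptor were mixed in direction. Of the 24 glucocorticoid-induced genes on the array, 11 were higher in 3 of 3 pairs, against 15.9% of all genes and 17.3% of those with a mean log2 signal of at least 7, and 5 were lower, against 16.6% and 27.2%. Nr3c1, the receptor itself, was at 9.99, 10.25 and 9.83 in Y3 plus corticosteroid cells, against 9.84, 10.22 and 10.00 in Y3 cells, a difference of 0.00 ± 0.26. Tsc22d3, the gene of the anti-inflammatory factor GILZ, was at 9.10, 10.24 and 10.13 in Y3 plus corticosteroid cells, against 7.76, 8.52 and 8.41 in Y3 cells. The groups did not overlap and each replicate number gave a like step, a difference of 1.60 ± 0.58 or 3.03-fold. Fkbp5, a co-chaperone that dampens the receptor, was at 9.10, 9.35 and 9.37 in Y3 plus corticosteroid cells, against 8.86, 8.16 and 8.26 in Y3 cells. Its step was small in the pair of replicate 1 and larger in the others (0.25, 1.19 and 1.11), a mean difference of 0.85 ± 0.33. Txnip, which limits glucose uptake and binds thioredoxin, was at 14.89, 15.76 and 15.95 in Y3 plus corticosteroid cells, against 13.69, 14.57 and 14.02 in Y3 cells. Again no Y3 array reached any array with corticosteroid, and the difference was 1.44 ± 0.64.

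Of the 24 glucocorticoid-induced genes on the array, 16 had a difference above 0 and 8 below, with a median of 0.11 beside 0.00 over all genes, of which 50.0% were above 0 and 50.0% below. An unadjusted p under 0.05 with a higher value was found for 5 of them, Tsc22d3, Fkbp5, Txnip, Klf9 and Il7r, against 1.5% of all genes tested. With the block, 6 were higher and 2 lower at that p, where 6.71% of all genes passed in either direction. Klf9, a transcription factor of the receptor's early response, differed by 0.62 ± 0.23, and Il7r, the interleukin 7 receptor that keeps T cells alive, by 1.02 ± 0.44. Zfp36l2, which destabilises mRNAs, differed by 0.74 ± 0.42, with a standard error of 0.13 when the replicate number was a block. Other familiar targets showed little difference: Per1, a clock gene, at 0.18 ± 0.37, Sgk1, a kinase of ion transport, at 0.08 ± 0.27 and above the background line on 2 of 3 arrays with corticosteroid, and Dusp1, a phosphatase of MAP kinases, at -0.12 ± 0.31. The metallothionein genes Mt1 and Mt2, which bind zinc, were lower in 3 of 3 pairs, by differences of -0.48 ± 0.23 and -0.58 ± 0.33.

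The glucocorticoid response element searched was GNACANNNTGTNC, a pair of half-sites with a spacer of 3 bases, on both strands, in the 250 bases before each gene's start in RefSeq's promoter table (GRCm38.p6). It was present for 3 of the 22 glucocorticoid-induced genes with an entry, Sgk1, Txnip and Mt1, and for 0.44% of all 27025 symbols. These genes had a difference near 0, above 0 and below 0 in these cells. The Txnip window (chr3:96557707-96557956, plus strand) is shown because Txnip had the largest difference of the 3, with the match in capitals.
Txnip: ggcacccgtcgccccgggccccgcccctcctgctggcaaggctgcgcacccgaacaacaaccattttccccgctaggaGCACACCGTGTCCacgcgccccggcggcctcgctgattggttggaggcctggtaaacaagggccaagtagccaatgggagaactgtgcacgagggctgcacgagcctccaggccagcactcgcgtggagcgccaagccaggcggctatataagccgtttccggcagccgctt

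**Figure D1:**
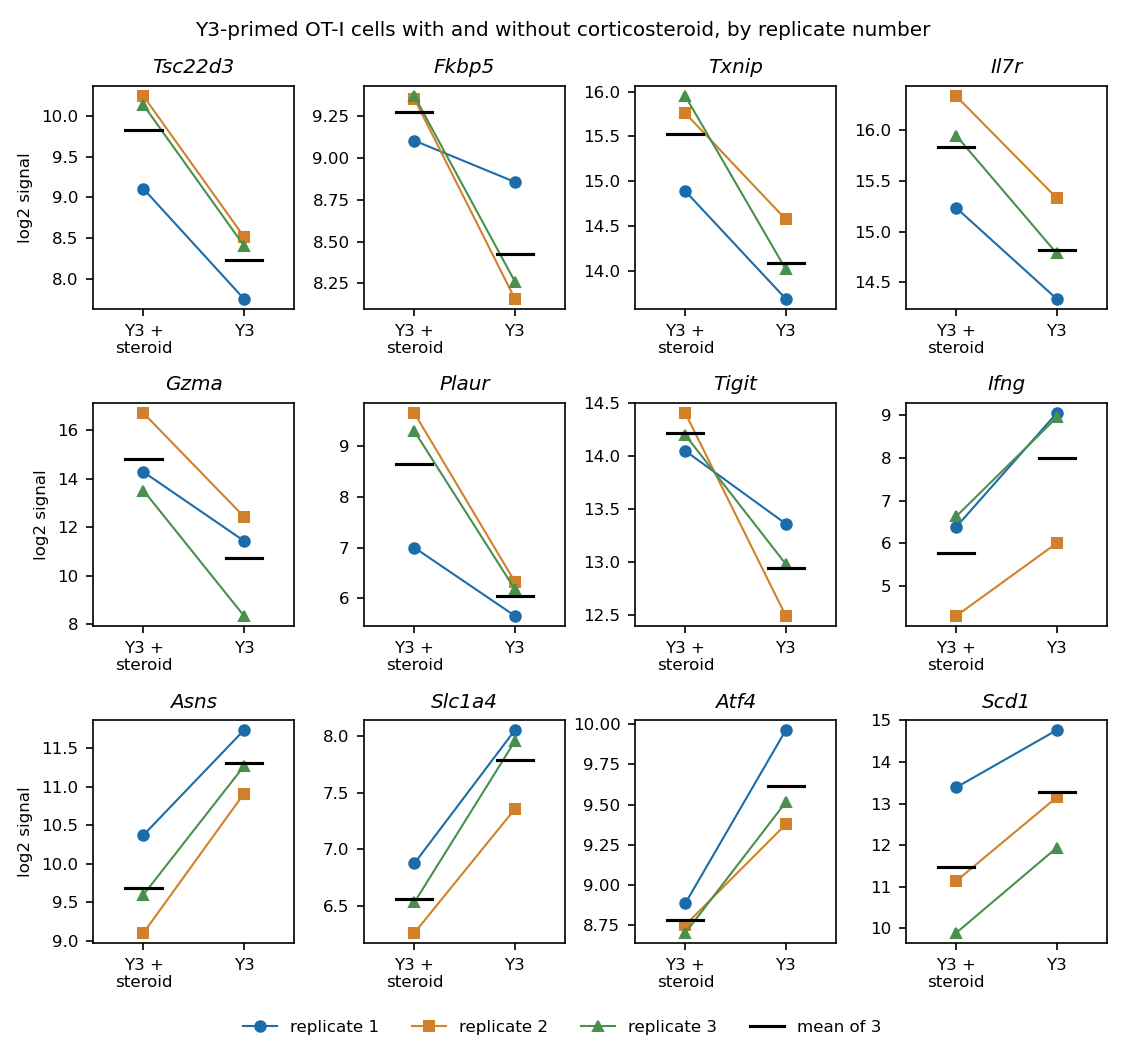
Log2 signal of 12 genes in Y3 plus corticosteroid cells (left of each panel) and Y3 cells (right). Points are arrays, lines join arrays of the same replicate number, and black bars are means of 3. Tsc22d3, Txnip and Plaur do not overlap between the groups, and Asns, Slc1a4 and Atf4 lie lower with corticosteroid on every array.

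Genes of killing and of cytokine secretion went in both directions. Gzma, the tryptase granzyme A, was at 14.28, 16.70 and 13.52 in Y3 plus corticosteroid cells, against 11.44, 12.44 and 8.35 in Y3 cells. All 3 arrays with corticosteroid lay above all 3 without, and the difference of 4.09 ± 2.12 was the highest of any list member. The large error came with a wide spread between replicate numbers in both groups and was 0.88 with the block. Gzmb, the granzyme that starts apoptosis through caspases, was among the brightest genes and was at 18.29, 17.64 and 17.19 in Y3 plus corticosteroid cells, against 18.96, 17.90 and 17.68 in Y3 cells. It was lower in 3 of 3 pairs (-0.47 ± 0.50), opposite in sign to Gzma. Gzmc, a further granzyme, was far brighter in replicate 1 than in the others, at 13.70, 9.38 and 6.74 in Y3 plus corticosteroid cells, against 15.16, 11.02 and 7.77 in Y3 cells. Prf1, the pore-forming perforin, differed by -0.72 ± 1.43 with mixed signs over the pairs. Serpinb9 and Serpinb6b, inhibitors that protect killer cells from their own proteases, differed by 1.20 ± 0.62 and 0.77 ± 0.58, higher in 3 of 3 pairs. Over the 15 cytotoxic granule genes, 9 were above 0 and 6 below.

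Ifng, the cytokine interferon gamma, was at 6.38, 4.30 and 6.63 in Y3 plus corticosteroid cells, against 9.05, 6.0 and 8.94 in Y3 cells. It was lower in 3 of 3 pairs by steps of -2.66, -1.70 and -2.31, while the groups overlapped. Both arrays of replicate 2 were dim, and the one with corticosteroid lay below the background line. Lta, lymphotoxin alpha, was also lower in 3 of 3 pairs (-1.17 ± 0.95). Il10, an anti-inflammatory cytokine, was at 5.42, 7.06 and 6.04 in Y3 plus corticosteroid cells, against 4.70, 4.76 and 4.39 in Y3 cells. It lay under the background line on all Y3 arrays and above it on 1 array with corticosteroid, so it was not measured above background in most of these cultures. Of 23 cytokine and chemokine genes, 9 were lower in 3 of 3 pairs, against 16.6% of all genes, and 3 were higher, against 15.9%. Of the 23, 10 had a mean log2 signal of at least 7 over the 12 arrays, and among all 12417 such genes these shares were 27.2% and 17.3%. Under the background line lay 12 of the 23 on all arrays with corticosteroid and 13 on all Y3 arrays, so the counts include members not measured above background. By sign, 10 were above 0 and 13 below, with a median of -0.08.

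Several receptors of T cell inhibition were higher with corticosteroid. Tigit, an inhibitory receptor that binds nectin-family ligands, was at 14.05, 14.40 and 14.20 in Y3 plus corticosteroid cells, against 13.36, 12.49 and 12.98 in Y3 cells. The groups did not overlap, and the difference of 1.28 ± 0.33 was 2.42-fold. Pdcd1, which encodes PD-1, differed by 1.17 ± 0.59, and Cd160, another inhibitory receptor, by 0.98 ± 0.58. Both were higher in 3 of 3 pairs, with standard errors of 0.25 and 0.21 once the replicate number was a block. Havcr2, which encodes TIM-3, ran the other way in 3 of 3 pairs, at 11.79, 10.10 and 9.36 in Y3 plus corticosteroid cells, against 13.14, 11.21 and 10.58 in Y3 cells. With the block, limma's adjusted p was 0.299 for Pdcd1, 0.306 for Cd160 and 0.908 for Havcr2. Of the 14 genes of this list, 9 were above 0 and 5 below, with a median of 0.08. Slamf6, found on naive and stem-like T cells, differed by 1.09 ± 0.99, and Klf2, a factor of T cell quiescence, by 0.69 ± 0.67, each higher in 3 of 3 pairs. Klf2 ran from 0.03 to 1.21 with replicates left out. Of their list of 16 naive, stem-like and memory genes, 12 were above 0 and 4 below, and 11 had mixed signs over the pairs. The list's pair medians were 0.52, 0.05 and 0.02, and its median ran from -0.22 to 0.28 with replicates left out.

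Receptors and survival genes tied to growth signals also differed in sign. As lists they had medians near 0. Above 0 were 12 of 19 cytokine receptors, 4 of 9 genes of STAT5 feedback and 6 of 15 of the BCL2 family. So were 9 of 18 CDK inhibitors and quiescence genes and 6 of 18 activation and costimulation genes, the list of Il2ra and Tnfrsf9. In that order, 5, 3, 4, 3 and 4 members were higher in 3 of 3 pairs, against 15.9% of all genes. Lower in 3 of 3 pairs were 2, 2, 6, 5 and 4, against 16.6%. Each gene named below had 1 sign in 3 of 3 pairs, so these genes do not stand for their lists. Il2ra, the high-affinity chain of the interleukin 2 receptor, was at 14.46 ± 0.48 in Y3 plus corticosteroid cells and 15.24 ± 0.48 in Y3 cells (SD, n = 3), lower in every pair (-0.78 ± 0.36). Tnfrsf9, the costimulatory receptor 4-1BB, differed by -0.60 ± 0.26. Il7r was at 15.23, 16.34 and 15.95 in Y3 plus corticosteroid cells, against 14.34, 15.33 and 14.79 in Y3 cells, so the chains for interleukin 2 and interleukin 7 ran in opposite directions. Il27ra and Ifngr2, receptor chains for interleukin 27 and interferon gamma, differed by 0.67 ± 0.43 and 0.66 ± 0.87, and Ifngr2 ran from 0.05 to 1.16 with replicates left out. Among targets of STAT5, Cish, a feedback inhibitor, differed by 0.70 ± 0.41, Bcl2, which blocks apoptosis, by 0.70 ± 0.58 (0.22 to 1.37 with replicates left out), and Pim1, a growth-promoting kinase, by -0.66 ± 0.40. Pdcd4, which restrains protein translation, differed by 1.03 ± 0.51, and Cdkn1a, the cell cycle inhibitor p21, by -1.27 ± 0.61.

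Genes of the ATF4 programme were lower with corticosteroid. Asns, which makes asparagine, was at 10.37, 9.10 and 9.60 in Y3 plus corticosteroid cells, against 11.73, 10.91 and 11.27 in Y3 cells. Each array with corticosteroid lay below each Y3 array, and the difference of -1.61 ± 0.35, 3.06-fold lower, was the lowest among genes named by the rule. Atf4 itself was at 8.88, 8.75 and 8.70 in Y3 plus corticosteroid cells, against 9.96, 9.38 and 9.52 in Y3 cells, again with no overlap (-0.84 ± 0.23). Trib3, a stress-induced pseudokinase that lay above the background line on 2 of 3 arrays with corticosteroid, differed by -0.69 ± 0.23, Eif4ebp1, a brake on cap-dependent translation, by -0.52 ± 0.16, and Ddit3, the stress factor CHOP, by -0.76 ± 0.86. Chac1, which breaks down glutathione, was at 5.44, 5.06 and 5.53 in Y3 plus corticosteroid cells, against 6.32, 5.79 and 6.08 in Y3 cells, under the background line on all arrays with corticosteroid and at least 1.02-fold lower there. Of the 14 stress factor genes, 12 were below 0 and 7 had groups that did not overlap, against 4.16% of all genes and 5.83% of those with a mean of at least 7. Of the 14, 6 had such a mean, and 6 lay under the background line on all arrays with corticosteroid and 3 on all Y3 arrays, so the counts include members not measured above background. By pair, from replicate 1 to 3, the list's medians were -0.31, -0.28 and -0.46.

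Enzymes that make asparagine, proline, cysteine and glutamate were likewise mostly lower, with 12 of 16 below 0, against 57.3% of genes with a mean of at least 7, and 7 without overlap, against 5.83% of those genes and 4.16% of all. Pycr1 and Aldh18a1, which act in proline synthesis, differed by -0.56 ± 0.13 and -0.80 ± 0.27. Got1, an aspartate aminotransferase, was at 10.79, 10.63 and 10.66 in Y3 plus corticosteroid cells, against 11.31, 11.28 and 11.30 in Y3 cells, a small but even step, and Gpt2, an alanine aminotransferase above the background line on 2 of 3 arrays with corticosteroid, differed by -0.73 ± 0.20. Serine and one-carbon enzymes were less even, with 10 of 14 below 0, a median of -0.10 and pair medians of -0.34, -0.08 and 0.04. Among them Mthfd2, a mitochondrial enzyme of folate metabolism, was at 10.81, 10.25 and 10.20 in Y3 plus corticosteroid cells, against 11.77, 11.05 and 11.33 in Y3 cells. Pck2, a gene outside the lists that makes phosphoenolpyruvate in mitochondria, was at 8.12, 7.25 and 7.25 in Y3 plus corticosteroid cells, against 8.91, 8.40 and 8.49 in Y3 cells, a difference of -1.06 ± 0.32. Neither gene's groups overlapped.

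Several amino acid transporters and most tRNA synthetases were also lower. Slc1a4, a carrier of serine and alanine, was at 6.88, 6.27 and 6.54 in Y3 plus corticosteroid cells, against 8.05, 7.36 and 7.95 in Y3 cells. Its groups did not overlap and its difference was -1.23 ± 0.22. Slc7a5 and Slc3a2, which form the carrier of large neutral amino acids, differed by -1.48 ± 0.72 and -0.67 ± 0.29, Slc7a3, a carrier of arginine and lysine above the background line on 2 of 3 arrays with corticosteroid, by -0.82 ± 0.29, and Slc6a9, a glycine carrier, by -0.64 ± 0.21. Slc43a1, a facilitative carrier of branched-chain amino acids, was among the 5 above 0, at 6.92, 8.26 and 8.34 in Y3 plus corticosteroid cells, against 6.47, 6.82 and 6.73 in Y3 cells and higher in every pair (1.17 ± 0.32). Of 15 transporters, 10 were below 0, not far from the 57.3% of genes with a mean of at least 7, with a median of -0.19, which was -0.06 without Y3 replicate 1. Iars, Gars and Cars, the synthetases that charge tRNAs with isoleucine, glycine and cysteine, differed by -0.87 ± 0.32, -0.72 ± 0.27 and -0.97 ± 0.27, and Yars, Sars and Nars, which use tyrosine, serine and asparagine, by -0.71 ± 0.23, -0.67 ± 0.25 and -0.77 ± 0.37. Of 19 cytosolic synthetases, 17 were below 0 and 14 were lower in 3 of 3 pairs, against 16.6% of all genes and 27.2% of those with a mean of at least 7. An unadjusted p under 0.05 with a lower value was found for 5, against 1.69% of all genes, and for 9 with the block, against 3.48%. Vars and Wars, for valine and tryptophan, were the members above 0, at 0.02 ± 0.12 and 0.05 ± 0.36. The list's median was -0.52, -0.40 and -0.34 in the 3 pairs and -0.27 without Y3 replicate 1.

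The core of the amino acid response element, TGATGNAA, to which ATF4 binds with a C/EBP partner, was searched in the same windows on both strands. It was present for 3.91% of all symbols. Among members that were measured and had an entry, it was present for 5 of 13 stress factor genes (Atf3, Chac1, Nupr1, Vldlr and Fgf21). The amino acid enzymes had it for 3 of 11 (Asns, Pycr1 and Got1), transporters for 2 of 11 (Slc7a7 and Slc7a11) and synthetases for 2 of 11 (Gars and Tars). Asns (chr6:7693210-7693459, minus strand), Pck2 (chr14:55540016-55540265, plus strand) and Gars (chr6:55037751-55038000, plus strand) are shown as examples, picked after their values were seen, of genes lower in every pair. Each holds 1 match, in capitals, 23, 103 and 30 bases before the start. A match is a description of these letters only.
Asns: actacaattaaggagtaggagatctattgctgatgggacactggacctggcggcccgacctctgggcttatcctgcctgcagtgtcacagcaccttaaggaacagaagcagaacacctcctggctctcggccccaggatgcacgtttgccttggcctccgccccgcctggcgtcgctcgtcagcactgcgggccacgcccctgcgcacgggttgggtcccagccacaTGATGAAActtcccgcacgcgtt
Pck2: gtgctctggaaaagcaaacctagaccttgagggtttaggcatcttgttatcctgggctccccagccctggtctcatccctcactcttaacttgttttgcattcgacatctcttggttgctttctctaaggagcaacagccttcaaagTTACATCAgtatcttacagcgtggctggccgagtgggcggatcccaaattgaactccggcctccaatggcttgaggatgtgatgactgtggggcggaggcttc
Gars: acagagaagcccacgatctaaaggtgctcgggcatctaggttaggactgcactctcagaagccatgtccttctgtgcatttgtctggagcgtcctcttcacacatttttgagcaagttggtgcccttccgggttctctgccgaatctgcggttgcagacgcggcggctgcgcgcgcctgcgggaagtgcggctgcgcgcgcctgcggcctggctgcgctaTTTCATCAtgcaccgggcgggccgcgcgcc

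**Figure D2:**
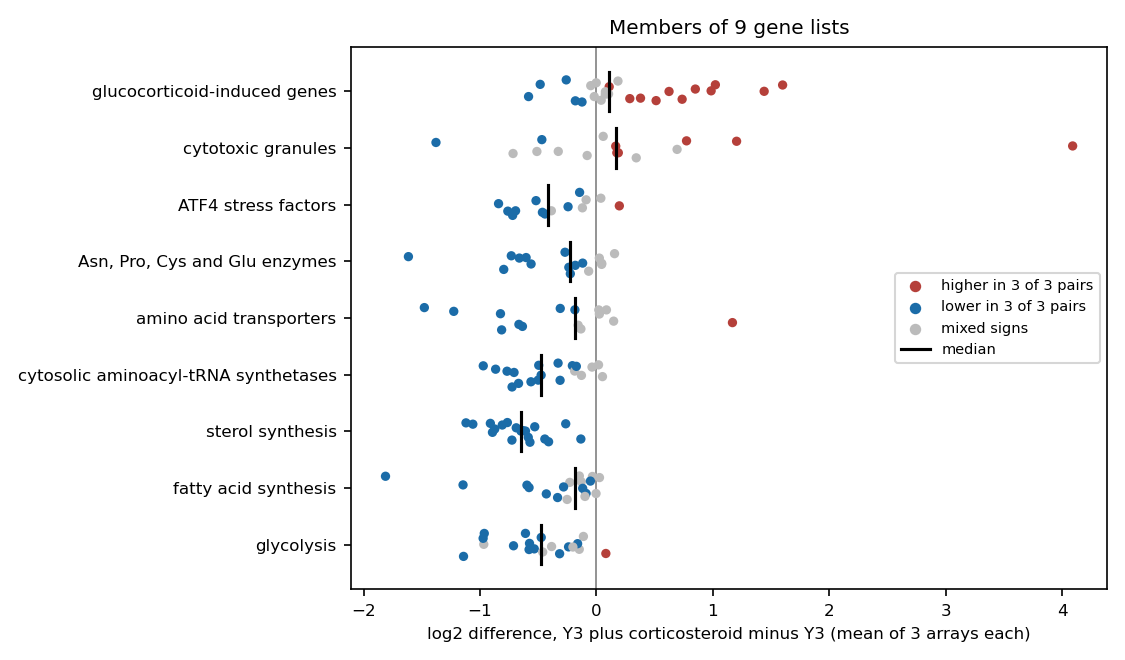
Log2 difference (Y3 plus corticosteroid minus Y3, means of 3 arrays) of each member of 9 gene lists, coloured by whether it kept its sign in 3 of 3 pairs. Black bars are medians. All 19 sterol synthesis genes lie below 0, while cytotoxic granule genes spread from -1.38 to 4.09.

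Sterol synthesis genes were lower throughout. All 19 listed enzymes of the pathway from acetyl-CoA to cholesterol were below 0, each in 3 of 3 pairs, where 16.6% of all genes and 27.2% of those with a mean of at least 7 did so. For 9 of the 19 the groups did not overlap, against 4.16% of all genes and 5.83% of those with a mean of at least 7. An unadjusted p under 0.05 was found for 1, against 1.69% of all genes lower at that level, and for 6 with the block, against 3.48%. Hmgcs1, which makes the mevalonate precursor HMG-CoA, was at 14.58, 13.84 and 14.02 in Y3 plus corticosteroid cells, against 15.64, 14.66 and 14.82 in Y3 cells. The groups did not overlap, and the difference was -0.89 ± 0.84. Pmvk and Mvd, later steps of the mevalonate branch, differed by -0.76 ± 0.22 and -0.87 ± 0.44, Fdps, which makes farnesyl pyrophosphate, by -1.12 ± 0.55, and Hsd17b7, a late reductase, by -1.06 ± 0.72. The list's median was -0.74, -0.63 and -0.57 in the 3 pairs. It stayed below 0 in each of the leave-one-array-out fits, which ran from -0.83 without Y3 plus corticosteroid replicate 1 to -0.44 without Y3 replicate 1.

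In fatty acid synthesis, 17 of 18 genes were below 0, against 50.0% of all genes and 57.3% of those with a mean of at least 7, with Scd1 and Fads2 lowest. The list's median was -0.19. Lower in 3 of 3 pairs were 10 of the 18, against 16.6% of all genes and 27.2% of those with such a mean, and 8 had mixed signs. On all arrays with corticosteroid 3 members lay under the background line, and 2 on all Y3 arrays. Scd1, which makes oleate, was at 13.39, 11.14 and 9.89 in Y3 plus corticosteroid cells, against 14.76, 13.15 and 11.94 in Y3 cells, and Fads2, which desaturates polyunsaturated chains, was at 12.13, 9.01 and 8.18 in Y3 plus corticosteroid cells, against 13.15, 10.33 and 9.27 in Y3 cells. Both genes were far brighter in replicate 1 than in replicates 2 and 3, so the groups overlapped, yet each was lower in every pair. Their standard errors with the block were 0.39 and 0.45, against 1.07 and 1.41 without. Scd2, the paralog of Scd1, differed by -0.58 ± 0.34, and Lpin1, which makes diacylglycerol, by -0.60 ± 0.36. Whether Scd1 and Scd2 share probes was not tested.

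The sterol regulatory element TCACNCCAC was present, on either strand, for 1 of 14 sterol genes with an entry, Hmgcs1, and for 1.22% of all symbols. The letters CCAAT, bound by NF-Y, were present for 13 of 14 and for 37.5% of all symbols. Hmgcs1 (chr13:119690101-119690350, plus strand) is shown as the gene that holds the first motif, in capitals.
Hmgcs1: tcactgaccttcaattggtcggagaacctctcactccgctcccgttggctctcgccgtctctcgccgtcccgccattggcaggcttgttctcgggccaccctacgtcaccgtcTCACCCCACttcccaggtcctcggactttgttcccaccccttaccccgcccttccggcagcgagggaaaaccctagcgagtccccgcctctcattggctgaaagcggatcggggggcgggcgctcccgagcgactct

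Glycolysis genes were lower mainly in replicates 2 and 3. Of 19 genes, 18 were below 0 and 12 were lower in 3 of 3 pairs, against 16.6% of all genes and 27.2% of those with a mean of at least 7, but by pair, from replicate 1 to 3, the medians were -0.13, -0.69 and -0.35. Aldoa, the aldolase that splits fructose bisphosphate, was at 12.74, 12.54 and 12.28 in Y3 plus corticosteroid cells, against 13.00, 13.17 and 13.12 in Y3 cells. The steps were -0.25, -0.63 and -0.84, and the groups did not overlap. Pgk1, phosphoglycerate kinase, was at 17.05, 16.44 and 16.36 in Y3 plus corticosteroid cells, against 17.20, 17.05 and 17.20 in Y3 cells, and Pkm, pyruvate kinase, differed by -0.71 ± 0.31. Gapdh, near the top of the signal range, differed by -0.16 ± 0.07. Hk2, the inducible hexokinase, stepped by -0.02, -2.03 and -0.84 in the 3 pairs and Slc2a1, the glucose carrier GLUT1, by 0.26, -1.99 and -1.17.

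Targets of hypoxia-inducible factor showed the same dependence on replicate. Of 18 genes 17 had a mean difference below 0, yet 4 were lower in 3 of 3 pairs, a share near those of all genes (16.6%) and of genes with a mean of at least 7 (27.2%), and the medians by pair were 0.09, -0.66 and -0.37. Bnip3, a mitophagy receptor, was at 11.26, 8.63 and 7.69 in Y3 plus corticosteroid cells, against 11.40, 10.47 and 8.91 in Y3 cells, and Vegfa, an angiogenic factor, differed by -0.72 ± 0.51. In the pair of replicate 1 both differences were small, with steps of -0.14, -1.84 and -1.22 for Bnip3 and -0.09, -1.38 and -0.68 for Vegfa over the 3 pairs.

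**Figure D3:**
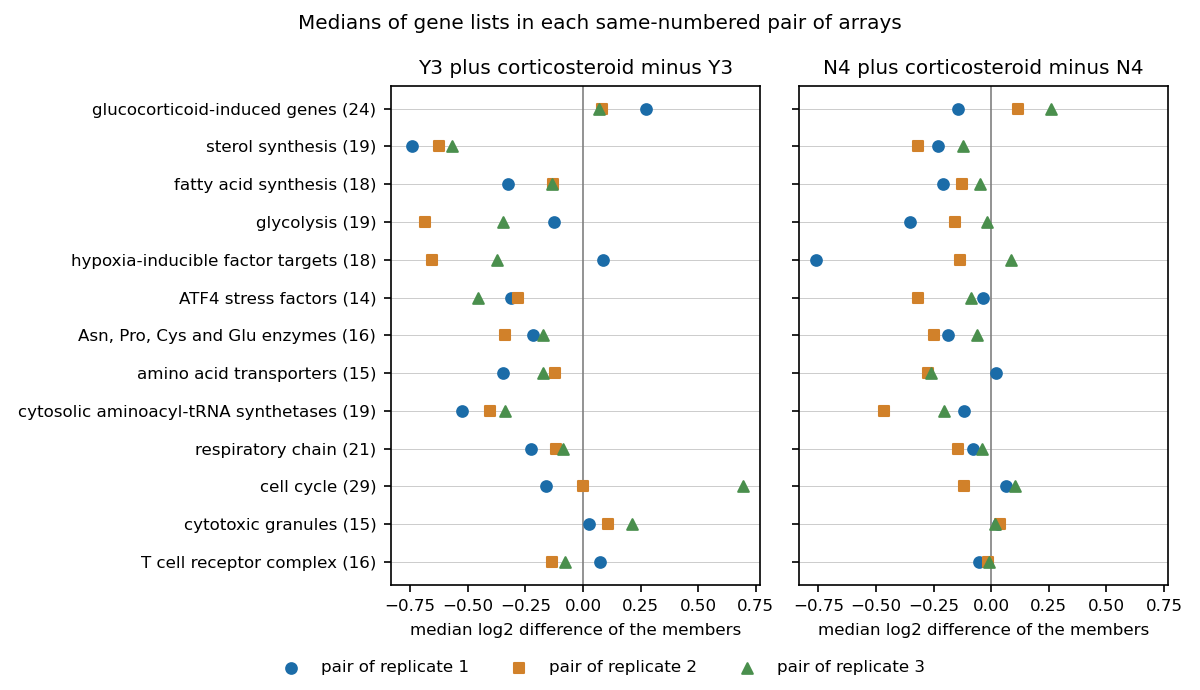
Median log2 difference of the members of 13 gene lists (number of members in brackets) in each same-numbered pair of arrays, for Y3 plus corticosteroid minus Y3 (left) and N4 plus corticosteroid minus N4 (right). Under Y3, the sterol synthesis medians lie between -0.74 and -0.57, and the cell cycle medians spread from -0.16 to 0.70.

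The naming rule took the 15 highest and 15 lowest differences among 279 genes with an unadjusted p under 0.05, 1 sign in all pairs and a mean of at least 7 in the brighter group, of which 57 were higher and 222 lower. Before the demand for 1 sign and a level, 591 genes were higher and 668 lower at that p. Plaur, the urokinase receptor, led the higher genes at 7.0, 9.65 and 9.29 in Y3 plus corticosteroid cells, against 5.65, 6.32 and 6.18 in Y3 cells. All 3 arrays with corticosteroid were above all Y3 arrays, of which 2 exceeded the background line, and the difference was 2.60 ± 0.64. Pde2a, a phosphodiesterase of cyclic nucleotides, was at 9.52, 11.04 and 9.82 in Y3 plus corticosteroid cells, against 7.41, 9.13 and 8.73 in Y3 cells, and Klf10, a TGF-beta-inducible repressor, was at 8.19, 8.70 and 9.67 in Y3 plus corticosteroid cells, against 7.74, 7.35 and 7.35 in Y3 cells. The remaining higher genes named here were Dusp2, a nuclear phosphatase of MAP kinases (1.07 ± 0.32), Npas2, a clock transcription factor (1.03 ± 0.23), Zyg11b, a ubiquitin ligase subunit (1.24 ± 0.47), Kbtbd11 (1.06 ± 0.25), Ttyh3 (1.01 ± 0.42), Arl14ep (0.97 ± 0.14) and Arhgef18 (0.92 ± 0.35). Arl14ep had the smallest error of the 30, at 10.73, 11.01 and 10.89 in Y3 plus corticosteroid cells, against 10.03, 9.95 and 9.73 in Y3 cells.

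Among the lower genes, Cxcr6, the receptor for CXCL16 on tissue-homing T cells, was at 11.51, 10.43 and 10.23 in Y3 plus corticosteroid cells, against 11.97, 11.56 and 11.61 in Y3 cells. Clybl, a mitochondrial enzyme of citramalyl-CoA breakdown, differed by -1.02 ± 0.38, Crim1 by -0.97 ± 0.27, Clic4, an intracellular chloride channel protein, by -0.83 ± 0.22, and Fam162a, a hypoxia-inducible mitochondrial protein, by -0.90 ± 0.40. Fam129a, also known as Niban, differed by -0.87 ± 0.30, and Fam213a by -0.81 ± 0.18. With the block, the adjusted p of the 30 genes ran from 0.136 to 0.601 in limma, and without it each was 1.00.

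Other groups showed smaller or uneven differences. The T cell receptor complex had a median of -0.04 over 16 genes, and interferon-stimulated genes had 0.05 over 24. Cell cycle genes were above 0 for 24 of 29, but 1 was higher in 3 of 3 pairs, and the medians by pair were -0.16, 0.00 and 0.70, with the step in replicate 3, while the list's median ran from -0.15 to 0.72 with replicates left out. Myc and ribosome biogenesis genes had pair medians of -0.46, 0.04 and 0.07, with the step in replicate 1. Respiratory chain genes were below 0 for 18 of 21 with a median of -0.15, and endoplasmic reticulum chaperones for 19 of 20 with -0.14. Without Y3 replicate 1 these medians were 0.02 and 0.00. For the T cell receptor complex the median was 0.07 without Y3 replicate 2. For comparison, 57.3% of genes with a mean of at least 7 were below 0, with a median of -0.03.

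The design also asks whether the steroid acted differently under the weak and the strong peptide. The interaction, the Y3 difference minus the N4 difference, passed for 0 of 39463 genes in limma (673 at an unadjusted p under 0.05, 1.71%), and for 0 with the block (1102, 2.79%). Because the 30 named genes were chosen for their Y3 values, their larger size under Y3 is a description only. The 15 higher genes were all above 0 under N4 as well, with a median of 1.17 under Y3 and 0.63 under N4. The 15 lower genes were all below 0 under N4, with a median of -0.96 under Y3 and -0.53 under N4. In N4 pairs, 12 of the higher and 13 of the lower genes kept that sign 3 times, where 13.2% and 18.2% of genes with a mean of at least 7 did so in those directions. Same-numbered arrays of the peptides deviated together from their group means, so the N4 pairs are not fully independent of the Y3 pairs.

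Plaur differed by 2.60 ± 0.64 under Y3 and 2.10 ± 0.64 under N4, and Npas2 by 1.03 ± 0.23 under Y3 and 0.88 ± 0.23 under N4. Gzma was at 4.09 ± 2.12 under Y3 and 3.35 ± 2.12 under N4, and Pdcd1 at 1.17 ± 0.59 under Y3 and 1.15 ± 0.59 under N4. Genes with a larger gap between the peptides were Atf4, at -0.84 under Y3 and -0.16 ± 0.23 under N4, Slc43a1, at 1.17 under Y3 and 0.13 ± 0.32 under N4, and Klf10, at 1.37 under Y3 and 0.26 ± 0.46 under N4. Their interactions were -0.69 ± 0.33, 1.04 ± 0.46 and 1.11 ± 0.65, and none passed the adjusted test. Sterol synthesis had pair medians of -0.74, -0.63 and -0.57 under Y3 and -0.23, -0.32 and -0.12 under N4, and tRNA synthetases had -0.52, -0.40 and -0.34 under Y3 and -0.12, -0.46 and -0.20 under N4. For glycolysis they were -0.13, -0.69 and -0.35 under Y3 and -0.35, -0.16 and -0.02 under N4, so the pairs of the 2 peptides overlapped. Also below 0 under N4 were 17 of 19 sterol synthesis genes, 18 of 19 tRNA synthetases and 19 of 19 glycolysis genes. Limma's smallest unadjusted interaction p was 0.110, 0.137 and 0.0612 in these lists, so no member fell under 0.05.

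**Figure D4:**
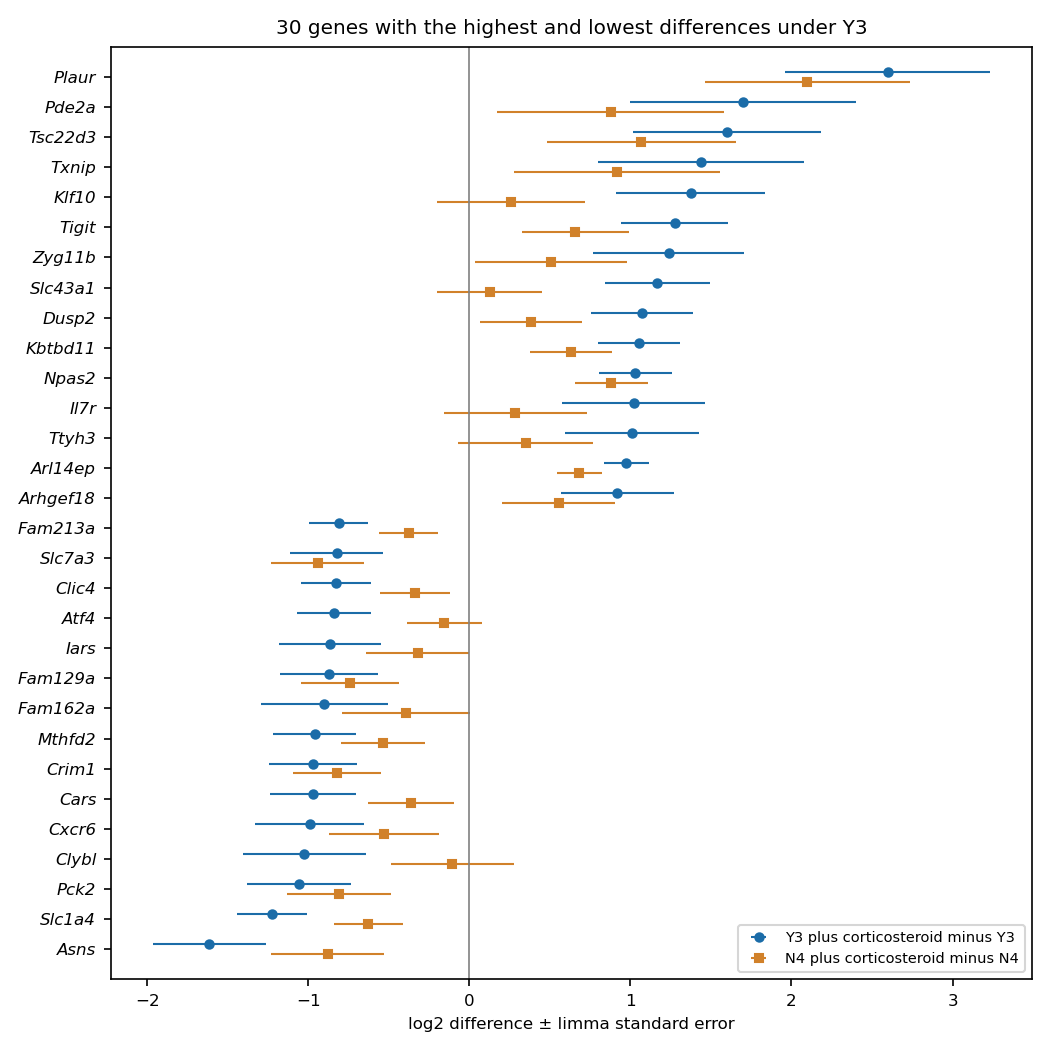
Log2 difference with limma's standard error (bars, n = 3 per group) of the 30 genes named by the rule, for Y3 plus corticosteroid minus Y3 (circles) and N4 plus corticosteroid minus N4 (squares). The genes were chosen on the Y3 values, and all 30 have the same sign under N4.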

How the data were processed

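Total RNA of 12 OT-I cultures was measured on Affymetrix mouse arrays. The authors deposited 1 linear signal intensity per transcript cluster, an SST-RMA gene summary per the file headers and RMA per the submitters' processing notes. RMA corrects background, quantile-normalises and summarises probes, and it shrinks differences of dim genes. The build behind the array annotation is not given in the sources. Log2 was taken of the deposited intensities, without a pseudocount or another normalisation. The planned design had assumed log2 values in the files. The series' value table was identical for all 72688 features, so that alternative gave the same values. Column names code the groups by letters (YS, Y, NS, N), read as Y3 or N4 with or without corticosteroid, and the value table's accessions bear this reading out.

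Of 65956 transcript clusters, 40123 had a gene symbol. The cluster with the highest mean over 12 arrays stood for each symbol, which left 39463 genes. Limma 3.58.1 in R 4.3.3 fitted a mean per group over all 12 arrays, with 8 residual degrees of freedom, empirical Bayes moderation, two-sided p-values and Benjamini-Hochberg adjustment over all genes (threshold 0.05). Errors of differences are limma standard errors, without the replicate block unless stated, and those of means are SDs. The script was tested on simulated data. Python 3.11.15 with numpy 2.4.6, pandas 2.3.3 and, for plots, matplotlib 3.10.9 made the tables.

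Samples of the same number deviated together from their group means, with correlations of 0.75, 0.54 and 0.52 between Y3 plus corticosteroid and Y3 arrays, and above 0.1 in all 18 pairs of groups and numbers, so the numbers were taken to pair the samples. This pairing comes from the data, not the labels. Both fits are given for the calls over all genes, for the interaction and for list counts at an unadjusted p under 0.05. Errors with the block are quoted for some genes only. With the block, limma's adjusted p was still 0.819 for Ifng, 0.883 for Hmgcs1 and 0.915 for Klf2.

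The 42 gene lists held 652 genes, 648 of them on the array. The members and lists were chosen with earlier results of these data known, so a list is described by counts and medians beside all genes, with no set test. Some genes counted in the lists are not reported here by name. The naming rule took the 15 highest and 15 lowest differences among genes with an unadjusted p under 0.05, 1 sign in 3 same-numbered pairs and a mean log2 signal of at least 7 in the higher group, leaving out gene models, Rik names, small RNAs and receptor segments, and list members could be named as well. A gene under the brightest background control on all 3 arrays of a group is given as a bound. The number of arrays limits the precision. Alternatives were the block, the 6 Y3 arrays alone, array weights, median centring, quantile normalisation, a level filter, an intensity trend, symbols with 1 cluster, and leaving out each array.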

Additional observations from a re-analysis of the deposited data

Results flagged for a closer look

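Some genes had opposite signs under the peptides, every Y3 pair moving one way and every N4 pair the other. The search covered the named genes and the 648 list genes on the array, where a Y3 group had a mean of at least 7. None of their interactions passed limma's adjusted test, and the share of genes for which this happens without any difference was not estimated. Gpr15, a homing receptor of the large intestine, stepped by 0.65, 0.60 and 0.26 under Y3 and -0.01, -0.25 and -0.78 under N4, an interaction of 0.85 ± 0.50 (log2, SE). Atf3, a stress-induced partner of ATF4, stepped by -0.32, -0.30 and -0.77 under Y3 and 0.56, 0.01 and 0.20 under N4 (-0.72 ± 0.51), and Ccr4, a chemokine receptor, by -0.71, -0.39 and -0.03 and 0.71, 0.10 and 0.07 (-0.67 ± 0.45). Icos, a costimulatory receptor, had an interaction of -0.29 ± 0.39, Isg20, an interferon-stimulated exonuclease, of -0.28 ± 0.24, and Ogdh, of the tricarboxylic acid cycle, of 0.15 ± 0.34. Each of these groups held 3 arrays, too few for a check of single outlying arrays.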

How the results depend on the processing

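No alternative called a gene for Y3 plus corticosteroid against Y3 or, where it could be fitted, for the interaction. At an unadjusted p under 0.05 the first comparison had 1259 genes, 2649 with the replicate block, 4517 with the 6 Y3 arrays and the block, 2042 with array weights and 258 with a mean log2 signal of at least 7, which tests fewer genes. Single arrays or whole replicate numbers left out gave 600 to 1833. The smallest adjusted p over all alternatives was 0.102. The series' value table was identical and needed no fit. Leaving out whole replicate numbers was chosen after seeing the data. Leaving out 1 array also unbalances the numbers between the groups.

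With the level filter the medians of glucocorticoid-induced genes and amino acid transporters were 0.24 and -0.65, over 20 and 10 members. With replicates left out, medians ran from 0.049 to 0.32 for glucocorticoid-induced genes, -0.83 to -0.44 for sterol synthesis, -0.89 to -0.25 for glycolysis, -0.52 to -0.25 for ATF4 stress factors, -0.33 to -0.14 for amino acid enzymes, -0.34 to -0.061 for amino acid transporters and -0.64 to -0.27 for tRNA synthetases. None of these 7 lists turned its sign. Of all 42 lists, 23 turned the sign of their median under at least 1 alternative, and 912 of 1006 list medians moved by less than the spread between replicates.

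Among named genes, 0 crossed the adjusted threshold. Signs turned for 9 of the 117 genes, in 24 of 2797 values. The 2797 also include the alternatives that cannot move a Y3 difference. Nr3c1 was at -0.012 with array weights, -0.016 with median centring and -0.11 to 0.10 with replicates left out. Such ranges were -0.29 to 0.12 for Dusp1, -0.17 to 0.26 for Sgk1, -3.26 to 0.54 for Gzmc, -1.36 to 0.10 for Prf1, -0.064 to 0.10 for Vars, -0.20 to 0.30 for Wars, -1.11 to 0.017 for Cd68 and -0.014 to 0.13 for Ogdh. The cause was not tested.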

Other observations

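The genes given here were chosen after their values were seen, some by ordering genes by the fit with the replicate block. Errors of differences in this section are limma standard errors with that block, unless stated otherwise, and are not comparable with the errors without it given above. Serpina3g, a serpin of T cell survival, was at 9.07, 7.53 and 7.37 in Y3 plus corticosteroid cells, against 7.19, 5.60 and 5.97 in Y3 cells. The groups did not overlap, with a difference of 1.74 ± 0.34 (log2, SE with the block) under Y3 and 1.72 ± 0.84 (SE without it) under N4. Fgl2, a secreted fibrinogen-like immune suppressor, differed by 1.22 ± 0.39, and Iigp1, an interferon-inducible GTPase, by 1.23 ± 0.45, each higher in 3 of 3 pairs and above the background line on 2 of 3 Y3 arrays.

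On the lower side, Dusp4, a nuclear phosphatase of MAP kinases, was at 9.80, 8.57 and 8.86 in Y3 plus corticosteroid cells, against 10.23, 10.59 and 10.76 in Y3 cells, opposite in direction to Dusp2. Rgs16, a brake on G protein signalling, differed by -1.13 ± 0.37, Serpine2, a protease inhibitor, by -1.13 ± 0.34, Zbtb32, a transcriptional repressor in lymphocytes, by -1.07 ± 0.39, Ell2, a transcription elongation factor, by -1.02 ± 0.15, and Fam46a by -1.26 ± 0.35. Among the listed markers of other cells, Klrb1c, an NK cell receptor, was at 6.47, 6.25 and 5.46 in Y3 plus corticosteroid cells, against 5.23, 4.95 and 4.66 in Y3 cells, under the background line on all Y3 arrays and above it on 2 arrays with corticosteroid, while the related receptor Klri2 was at 8.85, 7.66 and 7.51 in Y3 plus corticosteroid cells, against 8.95, 9.62 and 9.46 in Y3 cells. Cd68, a lysosomal protein of macrophages that T cells can also express, differed by -0.53 ± 0.15, lower in 3 of 3 pairs.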
